A study of Homo sapiens with 4 samples.

Results

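CenU position codes 1 to 64 are the 64 CenU units that were part of the input DNA of the human artificial chromosome (HAC) in line HAC 4-65 and not of that in line HAC 1-20. They were defined by name, as the count references lettered T with a number from 1 to 64, and make up 64 of the 512 references counted. The choice was made with earlier results of these data known. Both lines are HT1080, an established human fibrosarcoma line, and each is 1 clone, isolated under geneticin after CenU and NCU DNA on BAC vectors had been introduced together. The HAC of HAC 4-65 came from CenU codes 1 to 96 and that of HAC 1-20 from CenU codes 65 to 128, and both also received NCU codes 1 to 96. References lettered T were read as CenU and those lettered L as NCU, a reading from the study's unit names that the files do not state. Total RNA of each line was either reverse transcribed (RT plus) or not (RT minus), and the codes were then amplified together with common primers and sequenced, which gave 4 libraries, 1 per line and treatment. Without reverse transcription, codes are amplified only from DNA that remained in the RNA sample, so the RT minus library was used here as the measure of DNA level. Where a pair of read counts is given for a line, the first is RT minus and the second RT plus. With 1 library per group no difference has a replicate check, no p-value is given, and all intervals are 95% intervals that cover counting error only. No human gene is counted in these files, so the cell line was not checked against marker genes. In bulk RNA, fewer cells that hold a HAC and less RNA per cell cannot be told apart.

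Human centromeres lie on alphoid DNA, a satellite of tandem repeats, and part of those repeats carries the CENP-B box, the binding site of the centromere protein CENP-B. CENP-B takes part in assembling chromatin with CENP-A, the histone H3 variant that marks the active centromere, and alphoid DNA is also transcribed into noncoding RNA. CenU is a synthetic alphoid unit that keeps its CENP-B boxes and carries tetO, and NCU is the same kind of unit with those boxes mutated and with LacO. Each unit was given its own position code, so that a unit can be told from its otherwise repetitive neighbours. Such repeats have no place in a genome build, and codes are ordered here by their number in the input. The study also assembled the HAC DNA, which was rearranged relative to the input, but that order was not used here, so neighbouring numbers need not be neighbours in the HAC.

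Each listed code has 23 bases, of which only 3 pairs vary within a family. They are shown because neighbouring numbers, and the edges of the runs described further on, differ by very few bases. The capitals mark the variable pairs at positions 9 to 10, 14 to 15 and 19 to 20, counted from 1 at the 5′ end. The first pair steps once every 16 codes, as the opening codes of the later blocks of 16 show:
CenU 17: ggggaaaaATcccAAtttAAggg
CenU 33: ggggaaaaAGcccAAtttAAggg
CenU 49: ggggaaaaACcccAAtttAAggg

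The second pair steps with every code and is repeated as the third pair. The codes at the edges of the high and low runs of DNA level differ from one another by these pairs only:
CenU 10: ggggaaaaAAcccGTtttGTggg
CenU 20: ggggaaaaATcccACtttACggg
CenU 24: ggggaaaaATcccTCtttTCggg
CenU 56: ggggaaaaACcccTCtttTCggg
CenU 64: ggggaaaaACcccCCtttCCggg

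A CenU code thus lies 1 base from the codes 16, 32 or 48 numbers away within the 64, and CenU 56 becomes CenU 24 by C10T. It also lies 1 base from the NCU code of the same number, by G4C. The numbering pattern was kept by 63 of the 64 codes, and the exception was CenU 1. The list gives CenU 1 the bases that the pattern and the primer of CenU 72 give to CenU 72, and gives CenU 72 the bases that the primer of CenU 1 encodes:
CenU 1: ggggaaaaTAcccTCtttTCggg
CenU 72: ggggaaaaAAcccAAtttAAggg

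CenU 1 as listed becomes CenU 72 by T9A, T14A, C15A, T19A and C20A. The reference of CenU 1 is also 82 bases long, as is that of NCU 1, whereas the other 510 references are 67 bases long. Which unit the reads of CenU 1 count was therefore not settled, and its values are kept apart where they weigh on a result.

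The 4 libraries held 248904 to 749846 reads on the references, with HAC 1-20 RT minus the shallowest, and 6.19% to 7.54% of reads matched none. In HAC 4-65, CenU 1 to 64 took 68858 reads in RT minus, or 9.65% of the reads on references (Wilson interval 9.58 to 9.72). In RT plus they took 60197 reads, or 8.80% (8.73 to 8.87). In HAC 1-20, where these units were not part of the input, RT minus had 1838 reads on them (0.738%, 0.706 to 0.773) and RT plus had 5079 (0.677%, 0.659 to 0.696). CenU 1 alone gave 700 and 2092 of those reads, and without it the shares in HAC 1-20 were 0.457% and 0.398%. Scaled to 10000 reads on NCU 1 to 96, which both lines received, CenU 1 to 64 stood at 1172 in the RT minus library of HAC 4-65, against 88.1 (84.2 to 92.3) in that of HAC 1-20. In RT plus the levels were 1068 and 83.0 (80.7 to 85.3). Without CenU 1 they were 1126 and 54.6 in RT minus, and 1024.5 and 48.8 in RT plus.

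The DNA level of the 64 codes in HAC 4-65 was far from even and followed their numbers. A stretch of high codes at the low-number end was followed by a sharp gap, a long even stretch, a broken stretch and a second gap that ran to the last code. Levels are given as a percentage of the median of the 96 input codes in RT minus, which was 942 reads. Of the 64 codes, 14 lay above 150% of that median, 34 between 50% and 150%, 3 between 20% and 50%, and 13 below 20%. The range ran from 27 reads (2.87%) at CenU 56 to 4763 reads (506%) at CenU 5. Counting alone would give a coefficient of variation of 3.05% at the mean of these codes, and the observed one was 92.8%. The NCU codes of the same numbers, which are amplified by the same primers in the same library, had one of 40.7%.

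The stretches named here were set after the values were seen. Steps between neighbouring numbers of at least 2-fold, with an interval excluding 1, were counted as a measure of how sharply the level changed. There were 8 such steps among the 63 neighbouring pairs of CenU 1 to 64 and 0 among the 63 pairs of NCU 1 to 64. The largest was the 21.5-fold drop from 591 reads at CenU 55 to 27 at CenU 56 (interval 14.7 to 31.5). Next came the 10.99-fold drop from 1478 reads at CenU 19 to 134 at CenU 20 (9.21 to 13.1), and the level returned 7.89-fold (6.52 to 9.56) from 118 reads at CenU 24 to 935 at CenU 25. The drop from 4763 reads at CenU 5 to 1438 at CenU 6 was 3.31-fold (3.12 to 3.51). The other 4 steps lay at CenU 51 to 52, 52 to 53, 53 to 54 and 56 to 57.

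The high run, defined as at least 3 neighbouring numbers each above 150% of the median, took in CenU 1 to 10. These 10 codes held 40.7% of the RT minus reads of the 64 and 40.9% of the RT plus reads. CenU 2 to 10 alone held 36.7% and 36.8%. CenU 5, the highest code, had 4763 and 4100 reads in HAC 4-65 and 34 and 168 in HAC 1-20. CenU 3 had 4261 and 3835 reads in HAC 4-65 and 24 and 178 in HAC 1-20. CenU 4 had 4239 and 3999 reads in HAC 4-65 and 32 and 208 in HAC 1-20. CenU 2 to 5 were the highest 4 of the 64 codes in both HAC 4-65 libraries, at 358% to 506% of the median in RT minus.

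CenU 2 had 3377 and 3088 reads in HAC 4-65 and 50 and 182 in HAC 1-20. CenU 1 had 2714 and 2440 reads in HAC 4-65 and 700 and 2092 in HAC 1-20, so its HAC 4-65 level was near that of its neighbour while its HAC 1-20 level was not. From CenU 6 the level was lower, with 1416 to 2278 reads over CenU 6 to 10. CenU 7, the lowest of the run, had 1416 reads in HAC 4-65 RT minus, 150.3% of the median (interval 143 to 158), so it stood at the threshold. It had 1148 reads in RT plus, and 20 and 106 in HAC 1-20. CenU 10, the last code of the run, had 1833 and 1468 reads in HAC 4-65 and 12 and 64 in HAC 1-20. In the RT plus library the same rule split the stretch into CenU 1 to 5 and CenU 8 to 10, because CenU 6 and 7 were at 136% there. CenU 11, just outside in RT minus, was at 126%.

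CenU 11 to 19 joined the high run to the first gap, with 985 to 2199 reads in RT minus and a median of 1183. CenU 12, 14, 15 and 19 exceeded 150% there but formed no run of 3. Their values varied from code to code, from 985 reads at CenU 16 to 2199 at CenU 14. No step within this stretch reached 2-fold.

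The first low run, defined as at least 3 neighbouring numbers each below 50% of the median, was CenU 20 to 24. Its 5 codes had 118 to 222 reads in HAC 4-65 RT minus, 12.5% to 23.6% of the median, and 57 to 125 in RT plus. CenU 20 had 134 and 125 reads in HAC 4-65 and 13 and 31 in HAC 1-20. CenU 22, the highest of the 5 by DNA level, had 222 and 82 reads in HAC 4-65 and 29 and 20 in HAC 1-20. CenU 24, the lowest and last, had 118 and 57 reads in HAC 4-65 and 19 and 34 in HAC 1-20. Apart from CenU 53 and the second low run, every other code of the 64 lay above all 5, and the median of the run was 6.74-fold under that of CenU 25 to 51.

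CenU 25 to 51 formed the even stretch: 27 codes with 681 to 1406 reads in RT minus and a median of 903, close to the median of all input codes. Their coefficient of variation was 17.01%, against 3.27% from counting alone and 27.6% for NCU 25 to 51. Within it CenU 25 to 31 varied least, by 7.39%. The lowest was CenU 44 with 681 reads and the highest CenU 47 with 1406, which at 149% of the median stood just under the threshold of a high code. Relative to this stretch, the median of CenU 2 to 10 was 2.52 times as high.

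CenU 52 to 55 were the broken stretch. CenU 52 had 417 and 422 reads in HAC 4-65, the first being 44.3% of the median, and 13 and 45 in HAC 1-20. CenU 53 had 97 and 41 reads in HAC 4-65 and 14 and 18 in HAC 1-20, so it was a single low code at 10.3% of the median (interval 8.35 to 12.6). CenU 54 and 55 had 666 and 591 reads in HAC 4-65 RT minus. As CenU 52 and 53 were only a pair of neighbours under 50%, they formed no run.

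The second low run was CenU 56 to 64, which reached the last of the 64 codes. Its 9 codes had 27 to 108 reads in HAC 4-65 RT minus, 2.87% to 11.5% of the median, and 25 to 63 in RT plus. The median of the run was 12.7-fold under that of CenU 25 to 51. CenU 56 had 27 and 46 reads in HAC 4-65 and 13 and 9 in HAC 1-20. CenU 58, the highest of the 9 by DNA level, had 108 and 43 reads in HAC 4-65 and 7 and 6 in HAC 1-20. CenU 64 had 63 and 63 reads in HAC 4-65 and 4 and 10 in HAC 1-20. CenU 56 was the lowest code of the 64 in RT minus but not in RT plus, where CenU 59, with 57 and 25 reads in HAC 4-65 and 5 and 5 in HAC 1-20, was lowest.

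The remaining codes among the 5 lowest were CenU 57, with 69 and 26 reads in HAC 4-65 and 4 and 10 in HAC 1-20, and CenU 61 and 63, each with 71 reads in HAC 4-65 RT minus. In RT plus CenU 61 had 34 reads and CenU 63 had 37, and in HAC 1-20 they had 11 and 10, and 11 and 11. The 14 codes of both low runs together held 2.07% of the RT minus reads of the 64. The RT plus library gave the same low runs, CenU 20 to 24 at 6.75% to 14.8% of its own median and CenU 56 to 64 at 2.96% to 7.46%.

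The low codes were set against codes absent from HAC 4-65. CenU 97 to 128, which were never part of the input of this line, had 2 to 10 reads each in RT minus (median 5) and 3 to 24 in RT plus (median 11). The median of CenU 20 to 24 was 26.8 times, and that of CenU 56 to 64 was 14.2 times, that of these absent codes in RT minus. In RT plus the same ratios were 5.91 and 3.27. Every code of both low runs had more reads than the highest of the absent codes in each of the 2 libraries. Against its own level in HAC 1-20 RT minus, however, CenU 56 was not higher (0.723-fold, 0.377 to 1.39). For that code an RT minus level above the HAC 1-20 background was thus not detectable. In RT plus it had 0.816 reads per 10000 NCU reads in HAC 4-65 and 0.147 in HAC 1-20.

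The variable bases were checked against the low codes, since the codes of a column of the design share all but their first pair of variable bases. The pair TC is shared by CenU 8, 24, 40 and 56, which had 2278, 118, 971 and 27 reads in RT minus. The pair TA is shared by CenU 5, 21, 37 and 53, with 4763, 194, 856 and 97 reads, which spans the highest code of all and a pair of low ones. Codes that differ at position 10 alone thus had levels more than 20-fold apart. The codes hold 10 to 15 G or C bases each, and those below 20% of the median had 11, 12, 13 or 15. Over the 64 codes the log2 RT minus reads gave -0.25 (Pearson r) and -0.24 (Spearman rho) with the G and C count. Over the 51 codes that reached 20% of the median they gave -0.03 and -0.08. These are descriptions over codes that share 1 library and whose base content repeats with the numbering.

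Against the nearest group of codes, CenU 65 to 96 of the same input, CenU 1 to 64 were lower on the whole. The median was 910 reads for the 64 and 1459 for those 32 in RT minus, a ratio of 0.624, and 0.542 in RT plus. Of CenU 65 to 96, 16 codes lay above 150% of the median, 9 between 50% and 150%, and 7 below 20%. The number of 2-fold steps was 11 of 31 neighbouring pairs there. Such a step was made by 12.7% of the neighbouring pairs of the 64 and by 35.5% of those of the 32, a difference that was not tested.

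CenU 72, which is counted under CenU 65 to 96, bears on CenU 1. It had 77 and 55 reads in HAC 4-65 and 21 and 79 in HAC 1-20. CenU 72 belonged to the input of both lines, yet in HAC 1-20 RT minus it stood at 4.15% of the median of the 64 input codes of that line, while CenU 1, which did not, stood at 138%. The 2 references were thus out of place in opposite ways in HAC 1-20. If their names were exchanged, CenU 1 would be a low code in HAC 4-65 at 8.17% of the median next to CenU 2 at 358%, and the high run would be CenU 2 to 10. Relative to NCU 1, whose reference has the same length, CenU 1 had 31.6% and 28.7% of its reads in HAC 4-65 and 21.1% and 21.9% in HAC 1-20, whereas CenU 2 had 52.3% and 48.7% of those of NCU 2 in HAC 4-65 and 1.41% and 1.78% in HAC 1-20.

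The second question was whether the codes differed between RT plus and RT minus. The RT plus library can also be amplified from DNA that remained in the RNA sample, so its ratio to RT minus is not one of RNA to DNA. The ratio of each code was scaled by the summed reads of NCU 1 to 96 in its library, with 0.5 added to each count, so a log2 ratio of 0 means that the code kept its level relative to NCU. CenU 1 to 64 were slightly lower in RT plus: the median log2 ratio was -0.15, and that of the summed reads was -0.13 (interval -0.15 to -0.12). CenU 65 to 96 went the other way in sum, at 0.10 (0.09 to 0.12), and these 2 intervals did not overlap. The median of NCU 1 to 64 was 0.01. Because reads are proportions, these ratios say nothing of the amount of RNA.

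Of the 64 codes, 8 were at least 2-fold lower in RT plus with an interval excluding 1, which is 12.5% of them against 4.07% of all 221 references with at least 10 reads. The 4.07% is 9 references, and these 8 codes are among them. None of the 64 was 2-fold higher, against 3.62% of the 221 references. That share was 8 references, all among CenU 97 to 128, which were absent from this line and had 2 to 10 RT minus reads each. An interval below 1 at any size was found for 38 of the 64 codes, or 59.4%, against 26.7% of all references. One above 1 was found for 2 codes, or 3.1%, against 18.1% of all references. Among NCU 1 to 64 the corresponding counts were 10 below and 15 above, with log2 ratios from -0.16 to 0.31. The log2 ratio of the 64 codes had an SD of 0.47, where counting alone gives 0.14, and that of NCU 1 to 64 an SD of 0.09. Over the 64 numbers the log2 ratios of CenU and NCU had a Pearson correlation of 0.03, a description over codes that share both libraries.

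All 8 codes that were 2-fold lower also had a low DNA level. They were CenU 21 and 22 of the first low run, the single low code CenU 53, and CenU 57 to 60 and 62 of the second. CenU 62 had the lowest log2 ratio, -1.59 ± 0.32 (SE), with 86 and 27 reads in HAC 4-65 and 13 and 6 in HAC 1-20. CenU 21 was at -1.51 ± 0.21, with 194 and 65 reads in HAC 4-65 and 12 and 24 in HAC 1-20. CenU 22 was at -1.37 ± 0.19. The other 5 lay between -1.33 ± 0.33 at CenU 57, followed by -1.26 ± 0.26 at CenU 58, and -1.11 ± 0.34 at CenU 59, the one nearest the 2-fold threshold. CenU 61, at -0.99 ± 0.30, and CenU 24, at -0.98 ± 0.23, fell just outside it.

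The low codes did not all move alike. CenU 20, the first code of the first low run, was at -0.04 ± 0.18, and CenU 64, the last of the second, was at 0.06 ± 0.26. CenU 56 was at 0.82 ± 0.35 (interval 0.136 to 1.497), the highest log2 ratio of the 64, on 27 and 46 reads. These 3 codes lay at edges of the low runs, but CenU 24, the last code of the first low run, was at -0.98 ± 0.23. The interval of CenU 56 did not overlap that of its neighbour CenU 57. With fewer than 150 reads in each library behind any code of the second low run, the intervals of CenU 57 to 63 (-1.59 to -0.87) all overlapped one another.

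In the 51 codes whose DNA level reached 20% of the median, the ratio was closer to 1 and still mostly below it. The median log2 ratio was -0.10, 43 of the 51 were negative, and 28 had an interval below 0 against 1 above. Of CenU 65 to 96, 25 codes reached that level. Their median was 0.08, 9 were negative, and 3 had an interval below 0 against 12 above. With the G and C count, the log2 ratios of the 51 codes gave 0.39 (Pearson r) and 0.34 (Spearman rho). Over all 64 codes the values were 0.07 and 0.18. These too are descriptions over codes that share both libraries. Next to CenU 21 and 22, the lowest were CenU 13, 28 and 31. CenU 13 was at -0.48 ± 0.07, with 1106 and 763 reads in HAC 4-65 and 19 and 74 in HAC 1-20. CenU 28 was at -0.42 ± 0.08, with 778 and 558 reads in HAC 4-65 and 18 and 36 in HAC 1-20. CenU 31 was at -0.37 ± 0.08, with 850 and 631 reads in HAC 4-65 and 25 and 34 in HAC 1-20. CenU 13 stood apart from its neighbours, as CenU 12 was at -0.02 ± 0.05 and CenU 14 at -0.09 ± 0.04.

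At the upper end of these 51 codes, CenU 47 was at 0.11 ± 0.05 (0.01 to 0.22), with 1406 and 1461 reads in HAC 4-65 and 16 and 25 in HAC 1-20. CenU 50 was at 0.09 ± 0.07, with 769 and 787 reads in HAC 4-65 and 19 and 19 in HAC 1-20. Both held nearly the same number of reads in the RT plus and RT minus libraries of HAC 4-65. CenU 52 was at 0.08 ± 0.10. CenU 27 was at 0.07 ± 0.07, with 884 and 888 reads in HAC 4-65 and 12 and 34 in HAC 1-20. CenU 48 was at 0.03 ± 0.07, with 938 and 921 reads in HAC 4-65 and 25 and 28 in HAC 1-20. Apart from CenU 47, the intervals of these codes took in 0.

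Many codes of low ratio lay side by side, but 38 of the 64 codes had an interval below 0. At that share, runs can also arise without any order along the numbers, and whether these exceed such runs was not tested. Runs of at least 3 neighbouring numbers whose interval lay below 0 took in 30 of the 64 codes, and no run of high ratio was found. The runs were CenU 5 to 11, 13 to 15, 17 to 19, 21 to 26, 28 to 31 and 57 to 63. None lay between CenU 32 and 56, where 20 of the 27 codes of the even stretch are found. Over CenU 32 to 51 the summed log2 ratio was -0.05 (-0.08 to -0.02), and over CenU 25 to 31 it was -0.24 (-0.30 to -0.19). The median DNA levels of these parts of the even stretch were 906 and 903 reads.

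The high run of DNA level was itself divided in the same way. CenU 2 to 5, the highest codes, had a summed log2 ratio of -0.09 (-0.12 to -0.06), and CenU 6 to 10 had one of -0.22 (-0.26 to -0.17). By sum, the ratio was thus lower after the drop in DNA level past CenU 5. Single codes did not divide there, as CenU 5 was at -0.16 ± 0.03 and CenU 8, after the drop, at -0.10 ± 0.04. CenU 9 was lowest of the first run of low ratio, at -0.26 ± 0.05, with 1692 and 1354 reads in HAC 4-65 and 9 and 79 in HAC 1-20. CenU 8 was highest, at -0.10 ± 0.04, with 2278 and 2033 reads in HAC 4-65 and 30 and 109 in HAC 1-20. CenU 11, its last code, was at -0.19 ± 0.06, with 1183 and 996 reads in HAC 4-65 and 22 and 74 in HAC 1-20.

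In the next runs, CenU 14 had 2199 and 1979 reads in HAC 4-65 and 24 and 80 in HAC 1-20. CenU 15 had 1681 and 1477 reads in HAC 4-65 and 23 and 56 in HAC 1-20 and a log2 ratio of -0.13 ± 0.05. Both were more moderate than CenU 13 in the same run. CenU 17 had 1042 and 908 reads in HAC 4-65 and 21 and 67 in HAC 1-20 and was at -0.14 ± 0.07. CenU 19, lowest of the run CenU 17 to 19, had 1478 and 1144 reads in HAC 4-65 and 18 and 72 in HAC 1-20 and was at -0.31 ± 0.06, which is the lowest ratio before the first gap in DNA level other than that of CenU 13. After that gap CenU 26, the last of its run, had 982 and 779 reads in HAC 4-65 and 17 and 51 in HAC 1-20 and was at -0.27 ± 0.07. CenU 29 had 903 and 762 reads in HAC 4-65 and 20 and 72 in HAC 1-20 and was at -0.19 ± 0.07.

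Low ratios lay on both sides of the first gap, but the runs before it depended on the scaling. Scaled by the summed reads of CenU 1 to 96, CenU 13 to 15 and 17 to 19 were no longer runs and CenU 5 to 11 was left as CenU 5 to 7 and 9 to 11, while CenU 21 to 26, 28 to 31 and 57 to 63 stayed as they were. After subtraction of the HAC 1-20 background the last run was CenU 57 to 60 and the first was CenU 1 to 11. In the block CenU 17 to 32, 13 of 16 codes had an interval below 0, and 12 of 16 in CenU 1 to 16. In CenU 33 to 48 the count was 4 of 16, and in CenU 49 to 64 it was 9 of 16, of which 7 were CenU 57 to 63. The summed log2 ratios of these 4 blocks were -0.25, -0.13, -0.07 and -0.11 for CenU 17 to 32, 1 to 16, 33 to 48 and 49 to 64. By the median over codes the order differed, at -0.29, -0.12, -0.08 and -0.56, with CenU 49 to 64 lowest. The NCU codes of the same numbers had median log2 ratios of -0.04, -0.01, 0.07 and 0.00.

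HAC 1-20 served as the line without these units. CenU 2 to 64 had 4 to 50 reads each in HAC 1-20 RT minus (median 17) and 5 to 208 in RT plus (median 34), in libraries where the median input code had 506 and 1678.5 reads. Scaled to 10000 NCU reads, the medians were 0.815 and 0.555. CenU 97 to 128, the codes absent from HAC 4-65, had medians of 0.0851 and 0.195 there in the same order. The codes compared are not the same, and CenU 97 to 128 have no NCU code of their number in the input, so code set and line cannot be told apart in this difference.

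By DNA level, 48 of the 64 codes were at least 10-fold higher in HAC 4-65 than in HAC 1-20 RT minus, or 75.0%, against 21.6% of all 222 references with at least 10 reads in the 2 libraries. No other reference was called, so the 21.6% is made up of these same 48 codes. Their median difference was 20.0-fold, and the largest was 63.3-fold at CenU 9 (interval 33.4 to 120). The 16 codes under 10-fold were CenU 1, the 5 codes of the first low run, CenU 53 and the 9 codes of the second. They ran from 0.723-fold at CenU 56 (0.377 to 1.39) to 5.52-fold at CenU 21 (3.12 to 9.79). All of them except CenU 56 had an interval above 1. CenU 52, with 10.98-fold, was the lowest of the codes past the threshold.

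The background in HAC 1-20 followed the code numbers too, most plainly in RT plus. After CenU 1, the members with the most reads in HAC 1-20 RT minus were CenU 2 (50 reads), CenU 6 (38), CenU 5 (34) and CenU 4 (32). CenU 6 had 1438 and 1153 reads in HAC 4-65 and 118 in the RT plus library of HAC 1-20. In HAC 1-20 RT plus, CenU 2 to 5 had 168 to 208 reads, CenU 25 to 51 had a median of 28 and CenU 56 to 64 one of 9. The codes that were high and low in HAC 4-65 were therefore mostly also high and low as background in HAC 1-20. CenU 20 to 24 differed from this, with a median of 31 reads in HAC 1-20 RT plus, near that of CenU 25 to 51, though in HAC 4-65 they were far below it.

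Over CenU 2 to 64, the log2 reads of the RT plus library of HAC 1-20 gave 0.79 (Pearson r) and 0.76 (Spearman rho) with the DNA level in HAC 4-65 (n = 63 codes). With the NCU codes of the same number in the same library, which lie 1 base away, the values were 0.79 and 0.82. With CenU codes 64 numbers higher they were 0.00 and -0.04. Most of those codes also lie 1 base away, as CenU 66 does from CenU 2. Most were abundant in HAC 1-20, but CenU 103 and 127 had 4 and 10 reads in RT plus. In HAC 1-20 RT minus the first pair of values was 0.62 and 0.56, the next 0.56 and 0.54, and the last 0.02 and 0.00. These are descriptions over codes that share primers and libraries, and the NCU profile itself had an r of 0.40 with CenU 1 to 64 in HAC 4-65 RT minus.

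The RT plus to RT minus ratio of the background in HAC 1-20 also changed along the numbers. In that line, 21 of the 64 codes had an interval below 1, or 32.8%, against 16.1% of all 223 references. For 5 codes it lay above 1, or 7.8%, against 16.6% of all references. The summed log2 ratio was 0.73 (0.53 to 0.92) over CenU 2 to 10, -0.78 (-0.94 to -0.62) over CenU 25 to 51 and -1.61 (-2.07 to -1.15) over CenU 56 to 64. CenU 20 to 24 were at -0.87 (-1.25 to -0.49) in HAC 1-20 and -0.95 (-1.12 to -0.77) in HAC 4-65. CenU 56 to 64 were at -0.86 (-1.05 to -0.67) in HAC 4-65. Both low runs were thus lower in RT plus than in RT minus in both lines, by summed log2 ratios whose intervals overlapped for the first run and not for the second. CenU 97 to 128 in HAC 4-65 had the opposite sign, at 1.18 (0.92 to 1.44).

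A part of the reads of the low codes can be set against this background. HAC 1-20 held 31.8% of the NCU-scaled RT minus level that CenU 20 to 24 had in HAC 4-65, and 34.4% of that of CenU 56 to 64. In RT plus the shares were 33.5% and 20.5%. For CenU 25 to 51 they were 5.38% and 3.35%, and for CenU 2 to 5 they were 2.37% and 4.51%. The background thus stood at 20.5% to 34.4% of the level of the low runs, and at under 6% of that of the even stretch and CenU 2 to 5.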

How the data were processed

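The authors trimmed MiSeq reads with cutadapt 4.0, matched them to the position code references with Bowtie and tabulated them with SAMtools. The authors deposited the raw count of reads on each reference, without normalization, for 4 libraries. References lettered T were read as CenU codes and L 1 to 96 as NCU codes, from the study's unit names and numbers; the files do not state this. Code sequences and primers came from the study's unit list.

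Library depth was 248904, 749846, 713705 and 683916 reads on references (HAC 1-20 RT minus and RT plus, HAC 4-65 RT minus and RT plus). Ratios used a pseudocount of 0.5, summed NCU 1 to 96 reads as scale and at least 10 reads in both libraries together. Intervals are 95% (Poisson, or Wilson for shares). Reads carry no molecular identifiers and can be PCR copies of 1 molecule, so intervals cover counting error only. The floor of 3 counts was 0.0004% to 0.0012% of a library. Runs needed 3 neighbouring numbers.

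No test between groups was possible with 1 library per group. The members, thresholds and rules were chosen with earlier results of these data known. The codes given values in all libraries were the edges and extremes of runs, the 5 highest and lowest by level and by ratio, the 5 highest in HAC 1-20 RT minus, and CenU 1 and 72. The functions were tested on simulated counts. The scripts ran on Python 3.11.15 with numpy 2.4.6 and scipy 1.17.1. Alternatives changed the reference level, background, scaling, pseudocount, minimum, thresholds, run length and the reading of CenU 1.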

Additional observations from a re-analysis of the deposited data

Results flagged for a closer look

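6 codes had log2 ratios of RT plus over RT minus on opposite sides of 0 in the 2 lines, with both intervals excluding 0. The difference between lines was not tested, as each line had 1 library per treatment. In HAC 1-20 these units were not part of the input, so the values there are those of background reads. CenU 3 was at -0.0927 in HAC 4-65 and 1.31 in HAC 1-20. CenU 5 was at -0.16 and 0.73, CenU 7 at -0.24 and 0.82, and CenU 9 at -0.26 and 1.51, in the same order. CenU 47 was at 0.11 in HAC 4-65 and -0.93 in HAC 1-20, and CenU 56 at 0.82 and -2.06. The 4 of these codes that were higher in RT plus in HAC 1-20 all lay in the high run of DNA level in HAC 4-65. The share of all references that met this rule was not counted. It was not met by members only. CenU 66, an input code of both lines, was at -1.52 (-1.97 to -1.06) in HAC 4-65 and 0.61 (0.52 to 0.69) in HAC 1-20.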

How the results depend on the processing

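Of 90 alternative values for 13 results, 70 stayed within 1.5 times the count or within the counting interval, and 20 moved. The median log2 ratio, the only result whose sign could change, stayed negative. The count of codes below 20% of the median was 13, and 8 below 10%. Among codes with at least 20% of the median, 2 instead of 8 were 2-fold lower in RT plus, 17 instead of 30 were in runs of low ratio, and the SD of the log2 ratio was 0.29 instead of 0.47. The SD was 0.434 with a pseudocount of 5, 0.426 with at least 100 reads, and 0.943 after subtraction of the HAC 1-20 background. After that subtraction 1 code instead of 0 was 2-fold higher, CenU 56, whose RT minus level fell to 0, and 1 code was higher at a 1.5-fold threshold. The median over that of CenU 65 to 96, 0.624, was 0.615 with means, 0.582 after background subtraction, 0.542 in RT plus and 0.561 with CenU 72 read as code 1. The summed level in HAC 1-20, 88.1 in RT minus and 83.0 in RT plus, was 54.6 and 48.8 without CenU 1, 55.6 and 50.1 with CenU 72 read as code 1, and 73.8 and 67.7 scaled by all reads. At 20-fold, 24 codes instead of 48 exceeded HAC 1-20. No paired analysis was possible because there was 1 library per group, and for the same reason no replicate could be left out. The causes of these changes were not tested, apart from those the alternatives make by construction.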
